A study of Mus musculus with 8 samples.

Results

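Transglutaminases are calcium-dependent enzymes that tie proteins together by joining a glutamine side chain of one protein to a lysine of another. This account covers 4 of them, Tgm1, Tgm2, Tgm3 and Tgm5, among the 46517 genes of a deposited expression table of mouse hair follicle stem cells. The genes were chosen by symbol, and Tgm5 was picked because its level differed between NFIB/X-dKO and NFIB-cKO cells. That difference, and each other difference that uses any of those libraries for Tgm5, is therefore given below as a description with no test.

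The study removed the nuclear factor I (NFI) transcription factors NFIB and NFIX, singly or together, from stem cells of the hair follicle bulge, and its title ties them to stem cell chromatin and hair loss. RNA was sequenced as 8 libraries, 2 for each of 4 genotypes, from males aged 70 days after birth, an age at which the follicles are in their resting phase. Every mouse carried the reporter allele R26-YFPfl/fl. NFIB/X-dKO mice (animals 33 and 36) had Sox9-CreER together with NFIBfl/fl and with NFIXfl/fl. NFIB-cKO mice (81 and 85) had Sox9-CreER with NFIBfl/fl. NFIX-cKO mice (32 and 88) had Sox9-CreER with NFIXfl/fl and with NFIBfl/+, that is 1 floxed Nfib allele. WT mice (34 and 82) were littermates with NFIBfl/fl and with NFIXfl/fl but no Cre. Sox9-CreER is an inducible Cre recombinase under the Sox9 gene, so deletion occurs only in cells that express it, and R26-YFP marks cells in which Cre acted. All cells were sorted from back skin as integrin alpha 6 positive, CD34 positive and Sca-1 negative, and a YFP gate was added for the knockouts but not for WT. Cre and the YFP gate were thus present in every knockout and absent in WT. In each comparison with WT below, they cannot be told apart from the loss of NFIB or NFIX.

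Each library carried its own animal number, and nothing further says how the animals were paired or housed, so p values measure the spread between these libraries. The NFIB/X-dKO animals are numbered in the 30s and the NFIB-cKO animals in the 80s, whereas NFIX-cKO and WT hold 1 of each, so the number series cannot be told apart from genotype between NFIB/X-dKO and NFIB-cKO. Expected counts summed to between 57173266 and 66854625 reads in 5 libraries, and the depth of NFIB-cKO 81 and both WT libraries was unknown. Total Nfib ran from 147.91 to 388.57 TPM over the libraries and total Nfix from 123.35 to 158.02 TPM. Mean Nfib was 383 TPM in NFIB/X-dKO, 263 TPM in NFIB-cKO, 174 TPM in NFIX-cKO and 219 TPM in WT. Mean Nfix was 137, 151, 131 and 158 TPM in the same order. Total Nfib was thus not lower than in WT where NFIB was removed. The deleted part is not named in the labels, so these totals check no label. The bulge markers Cd34 (810.74 to 1143.56 TPM) and Krt15 (7506.72 to 14486.65 TPM) were abundant in every library. TPM is a transcript level per length, scaled to the same total in each library, so levels of different genes can be set side by side.

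In skin, transglutaminases build the cornified envelope, the cross-linked protein shell that replaces the cell membrane of a dying surface keratinocyte, and they harden the hair shaft and the sheath around it. Tgm1 is anchored to the membrane, Tgm3 and Tgm5 are further epidermal enzymes, and human mutations of TGM1, TGM3 and TGM5 cause ichthyosis, uncombable hair and peeling skin. Tgm2, the tissue transglutaminase, is widespread, also binds GTP and acts outside the cell with fibronectin and integrins. The sort was for bulge stem cells, which are undifferentiated, and no envelope was measured. Markers of differentiated epidermis were present at unlike levels, with Krt10 at 295.61 to 1596.12 TPM and involucrin (Ivl) at 4.96 to 12.5 TPM.

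NFI proteins bind, as dimers, 2 copies of the half-site TTGGC in opposite directions, the second reading GCCAA, with 5 bases between them. The RefSeq promoter windows (GRCm38.p6, 250 bases before to 50 after a start) of Tgm5 and of Tgm7 and Epb42, the family genes on either side of it, are printed because these 3 neighbours had their lowest levels in the same cells, as described further on. Capitals mark a half-site on either strand, and each sequence reads 5′ to 3′ along its gene. Tgm5 lies at chr2:121085792-121086091, Tgm7 at chr2:121116347-121116646 and Epb42 at chr2:121036828-121037127, all on the minus strand.
Tgm5: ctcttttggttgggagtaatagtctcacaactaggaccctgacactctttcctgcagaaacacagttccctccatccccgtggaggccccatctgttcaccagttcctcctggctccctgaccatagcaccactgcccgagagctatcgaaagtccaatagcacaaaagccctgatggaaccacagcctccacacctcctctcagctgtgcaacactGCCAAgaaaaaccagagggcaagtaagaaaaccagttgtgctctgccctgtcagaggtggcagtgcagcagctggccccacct
Tgm7: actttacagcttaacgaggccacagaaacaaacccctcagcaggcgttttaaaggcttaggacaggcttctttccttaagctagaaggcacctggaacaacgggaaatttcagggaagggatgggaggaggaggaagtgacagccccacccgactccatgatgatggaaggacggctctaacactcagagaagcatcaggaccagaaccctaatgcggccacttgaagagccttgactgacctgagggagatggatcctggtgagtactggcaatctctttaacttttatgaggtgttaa
Epb42: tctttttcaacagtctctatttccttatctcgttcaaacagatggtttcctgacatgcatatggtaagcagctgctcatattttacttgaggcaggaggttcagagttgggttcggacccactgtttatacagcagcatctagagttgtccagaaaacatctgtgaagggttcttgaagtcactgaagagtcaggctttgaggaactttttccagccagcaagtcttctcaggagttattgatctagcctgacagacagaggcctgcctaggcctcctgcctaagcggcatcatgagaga
The Tgm5 window holds 1 half-site, beginning 33 bases before the start, and those of Tgm7 and Epb42 hold 0. The RefSeq start of Tgm7 lies beyond the end that GENCODE M21 gives the gene (121109795), so the annotations place its start differently, and the window at the GENCODE start was not examined. Half-sites also stand at -8 in the Tgm3 window and at -160 in 1 of the 2 Tgm1 windows. A half-site is found in 46.7% of the 32851 windows in the table, so holding one is common. The full site with both half-sites was found in 0.0365% of windows and in none of the family's. Windows were found for 9 of the 10 family genes, Tgm2 being the other one.

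Tgm5 (ENSMUSG00000053675; mm10, chromosome 2, 121046111 to 121085841, minus strand) was by far the most abundant transglutaminase, and its level followed genotype. It read 105.14 and 111.55 TPM in the NFIB/X-dKO libraries, 330.39 and 255.5 TPM in NFIB-cKO, 512.08 and 455.13 TPM in NFIX-cKO, and 626.46 and 580.09 TPM in WT. No 2 genotypes overlapped, though the rule that chose Tgm5 favours a gap between NFIB/X-dKO and NFIB-cKO. The share of all genes that separate in such a way is not given, here or for the genes below. Replicates differed most in NFIB-cKO. The mean was 108 ± 4.53 TPM in NFIB/X-dKO, 293 ± 53.0 TPM in NFIB-cKO, 484 ± 40.3 TPM in NFIX-cKO and 603 ± 32.8 TPM in WT (SD, n = 2 each). Among all genes of a library, Tgm5 ranked 1226 and 1124 in NFIB/X-dKO, 376 and 483 in NFIB-cKO, 250 and 287 in NFIX-cKO, and 229 and 255 in WT. In bulk RNA, fewer cells that express a gene and less RNA per cell cannot be told apart.

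**Figure D1:**
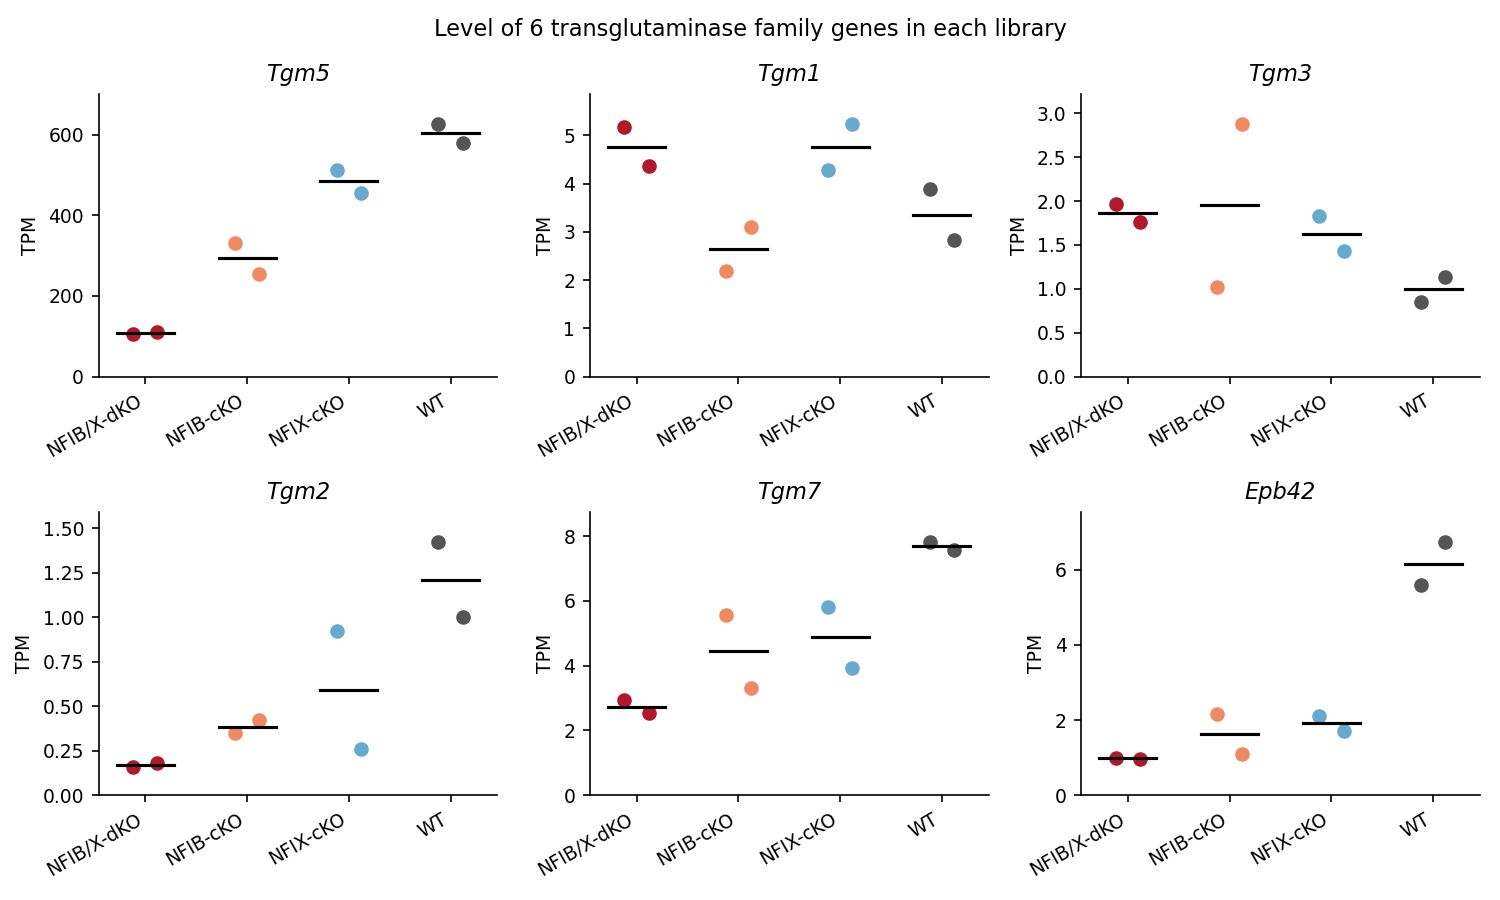
TPM of 6 genes of the transglutaminase family in each of the 8 libraries, 1 panel per gene with its own axis from 0; points are libraries, in number order from left to right within a genotype, and black bars are means of 2. Tgm5 is 105.14 and 111.55 TPM in NFIB/X-dKO against 626.46 and 580.09 TPM in WT, while Tgm1, Tgm2 and Tgm3 stay at or under 5.24 TPM.

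Described as differences in log2(TPM + 1) with the standard error of a limma fit to all 8 libraries, Tgm5 was 1.42 ± 0.15 lower in NFIB/X-dKO than in NFIB-cKO, the difference that chose it. It was 2.47 ± 0.15 lower in NFIB/X-dKO than in WT, where its mean was 18.0% of the WT mean. The NFIB-cKO mean was 48.6% of WT, a difference of -1.05 ± 0.15. From counts with edgeR, NFIB/X-dKO was 2.40 ± 0.14 lower than NFIX-cKO on the log2 scale. These comparisons share libraries, and no test is given for them. Expected counts behind these values were 9666 and 10817 in NFIB/X-dKO, 28059 in NFIB-cKO 85, and 51273 and 51184 in NFIX-cKO. Within the animals numbered in the 30s, NFIB/X-dKO differed from WT 34 by -2.52.

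NFIX-cKO against WT is the comparison that uses none of the libraries behind the choice of Tgm5, so it can be tested. Both NFIX-cKO libraries stood under both WT libraries, at 80.2% of the WT mean, but the difference of -0.32 ± 0.15 did not pass (limma, unadjusted p = 0.0730, adjusted p = 0.763). With these libraries a fall of that size was not told apart from the spread between replicates. In this comparison 23 of 15434 genes passed an adjusted p under 0.05 (0.149%), 0.0842% as higher and 0.0648% as lower. The order of Tgm5 levels was thus NFIB/X-dKO, NFIB-cKO, NFIX-cKO and WT from low to high, and the step between NFIX-cKO and WT did not pass the test.

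For Tgm5 the deposited mean transcript length in the 5 libraries with gene tables, which weights each transcript by its abundance, was 2588.55 and 2586.90 bases in NFIB/X-dKO, 2598.96 bases in NFIB-cKO 85, and 2579.66 and 2591.84 bases in NFIX-cKO. Tgm5 made up 89.7% and 91.2% of the summed TPM of 10 family genes in NFIB/X-dKO, 96.5% and 95.7% in NFIB-cKO, 97.0% and 97.2% in NFIX-cKO, and 96.8% and 96.7% in WT. The summed TPM of the family without Tgm5 was 12.1 and 10.8 in NFIB/X-dKO, 12 and 11.6 in NFIB-cKO, 15.6 and 12.9 in NFIX-cKO, and 20.7 and 20.0 in WT. No other family gene exceeded 7.81 TPM in any library.

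Tgm1 (chromosome 14, 55700009 to 55713926, minus strand), the membrane-anchored enzyme of the envelope, read 5.17 and 4.36 TPM in NFIB/X-dKO, 2.18 and 3.10 TPM in NFIB-cKO, 4.29 and 5.24 TPM in NFIX-cKO, and 3.88 and 2.84 TPM in WT. Every NFIB/X-dKO and NFIX-cKO library stood above every NFIB-cKO and WT library. Its difference from WT was 0.41 ± 0.23 in NFIB/X-dKO (limma, adjusted p = 0.406), -0.26 ± 0.23 in NFIB-cKO (adjusted p = 0.732) and 0.41 ± 0.23 in NFIX-cKO (adjusted p = 0.814), so none passed. Between NFIB/X-dKO and NFIB-cKO it was 0.67 ± 0.23 higher, given as a description. Against NFIX-cKO the edgeR difference was -0.25 ± 0.26 (adjusted p = 0.676). It was -0.51 without NFIX-cKO 32 and 0.05 without NFIX-cKO 88.

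Tgm3 (chromosome 2, 130012349 to 130050399, plus strand), which cross-links trichohyalin and keratin partners in the hair, read 1.97 and 1.76 TPM in NFIB/X-dKO, 1.02 and 2.88 TPM in NFIB-cKO, 1.83 and 1.43 TPM in NFIX-cKO, and 0.85 and 1.14 TPM in WT. The NFIB/X-dKO and NFIX-cKO libraries lay above both WT libraries, whereas NFIB-cKO 81 lay between them and NFIB-cKO 85 was the highest of all. The difference from WT was 0.52 ± 0.33 in NFIB/X-dKO (limma, adjusted p = 0.436), 0.49 ± 0.33 in NFIB-cKO (adjusted p = 0.626) and 0.40 ± 0.33 in NFIX-cKO (adjusted p = 0.901). NFIB/X-dKO differed from NFIX-cKO by -0.05 ± 0.21 (edgeR, adjusted p = 0.936) and, as a description, from NFIB-cKO by 0.03 ± 0.33. Tgm3 was thus not shown to differ between any genotypes.

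Tgm2 (chromosome 2, 158116402 to 158146436, minus strand) was weakly expressed. It read 0.16 and 0.18 TPM in NFIB/X-dKO, 0.35 and 0.42 TPM in NFIB-cKO, 0.92 and 0.26 TPM in NFIX-cKO, and 1.42 and 1 TPM in WT. Both WT libraries stood above all others, and NFIX-cKO 32 lay well above NFIX-cKO 88. Tgm2 entered the test only through the 2 WT libraries, since genes needed at least 1 TPM in at least 2 libraries, so being lower elsewhere was built into its entry, and its differences from WT are given without a test. They were -0.91 ± 0.27 in NFIB/X-dKO, -0.67 ± 0.27 in NFIB-cKO and -0.50 ± 0.27 in NFIX-cKO.

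Expected counts of Tgm2 were 21 and 23 reads in NFIB/X-dKO, 64 in NFIB-cKO 85, and 129 and 41 in NFIX-cKO. With edgeR, NFIB/X-dKO differed from NFIX-cKO by -2 ± 0.63 (unadjusted p = 0.0284, adjusted p = 0.297). Without NFIX-cKO 88 the difference was -2.57 and without NFIX-cKO 32 it was -1.03. With 1 NFIX-cKO library left, only the size is read from these fits. Limma on TPM gave -0.41 (adjusted p = 0.476) and DESeq2 -2.01 (adjusted p = 0.098). From NFIB-cKO the NFIB/X-dKO level differed by -0.24 ± 0.27, as a description. Of 7 endothelial markers, 5 stayed under 1 TPM in every library, with Cdh5 and Cldn5 at most 0.02 TPM, while Egfl7 reached 4.27 TPM and Pecam1 1.84 TPM. Of 8 fibroblast markers, 4 stayed under 1 TPM, with Lum at most 0.04 TPM, while Col6a1 reached 193.61 TPM, Col6a2 83.09 TPM and Col1a1 77.31 TPM. The part of such cells in the Tgm2 level was not tested.

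**Figure D2:**
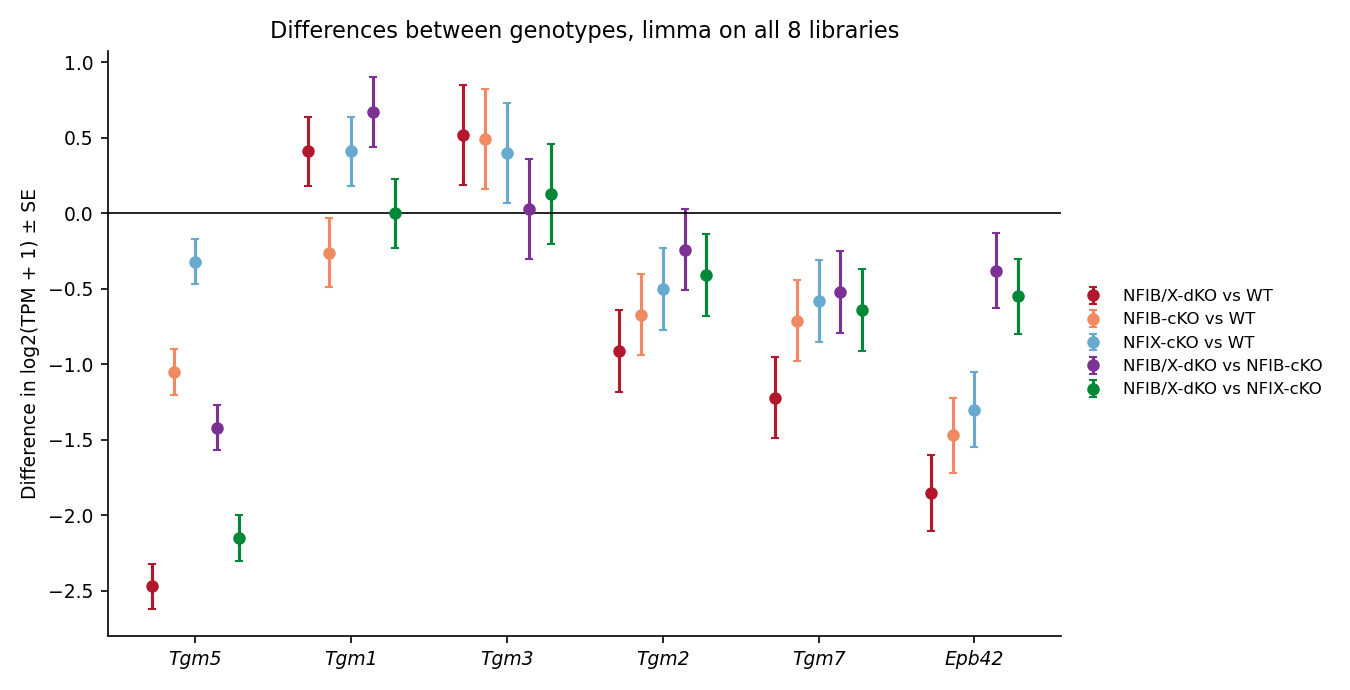
Differences in log2(TPM + 1) with standard errors from limma on all 8 libraries, for 6 family genes in 5 comparisons; the line marks 0, and the first genotype named is higher above it. Tgm5 is lowest against WT in NFIB/X-dKO (-2.47), then NFIB-cKO (-1.05) and NFIX-cKO (-0.32), while Tgm1 and Tgm3 lie between -0.26 and 0.67.

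Over all genes, 445 passed in NFIB/X-dKO against WT (2.88%; 1.62% higher, 1.26% lower), and of Tgm1 and Tgm3, 0 passed with limma and 0 had an unadjusted p under 0.05. In NFIB-cKO against WT 111 genes passed (0.719%; 0.292% higher, 0.428% lower), again with 0 of those 2 members and 0 at an unadjusted p under 0.05. In NFIX-cKO against WT 0 of Tgm1, Tgm3 and Tgm5 passed with limma and 0 had an unadjusted p under 0.05. In NFIB/X-dKO against NFIX-cKO, 59 of 18349 genes passed with edgeR (0.322%; 0.12% higher, 0.202% lower). There 0 of Tgm1, Tgm2 and Tgm3 passed with edgeR, DESeq2 or limma, and 1, Tgm2, had an unadjusted p under 0.05 with edgeR. In NFIB/X-dKO against NFIB-cKO, 35 genes passed (0.227%; 0.156% higher, 0.0713% lower), from which nothing is read for the members. The median gene differed by 0.16 between NFIB/X-dKO and WT in log2(TPM + 1), and with median-of-ratios scaling, which removes that shift, Tgm5 differed by -2.65.

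The other family genes were Tgm7, Epb42, Tgm4, Tgm6, F13a1 and F13b. Tgm7, a little-studied member, read 2.93 and 2.53 TPM in NFIB/X-dKO, 5.58 and 3.31 TPM in NFIB-cKO, 5.82 and 3.94 TPM in NFIX-cKO, and 7.81 and 7.58 TPM in WT. All 6 knockout libraries stood under both WT libraries. It differed from WT by -1.22 ± 0.27 in NFIB/X-dKO (limma, adjusted p = 0.0665), -0.71 ± 0.27 in NFIB-cKO (adjusted p = 0.326) and -0.58 ± 0.27 in NFIX-cKO (adjusted p = 0.76), and none passed. The first passed with median-of-ratios scaling (-1.36, adjusted p = 0.0324).

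Epb42, a member without enzyme activity that is known from the red cell membrane skeleton, read 0.99 and 0.97 TPM in NFIB/X-dKO, 2.16 and 1.10 TPM in NFIB-cKO, 2.11 and 1.72 TPM in NFIX-cKO, and 5.60 and 6.73 TPM in WT. All knockout libraries again stood under both WT libraries. It fell in NFIB/X-dKO against WT by 1.85 ± 0.25 (limma, adjusted p = 0.0156). In NFIB-cKO the difference was -1.47 ± 0.25 (adjusted p = 0.0696) and in NFIX-cKO -1.30 ± 0.25 (adjusted p = 0.254). The NFIB/X-dKO call was lost without a filter on low values (adjusted p = 0.0669), without WT 82 (0.0823), without NFIB/X-dKO 33 (0.159) or 36 (0.162), and against WT 34 alone (0.0755).

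NFIB/X-dKO against NFIX-cKO gave -1.07 ± 0.23 for Tgm7 (edgeR, adjusted p = 0.198) and -1.38 ± 0.28 for Epb42 (edgeR, adjusted p = 0.184). DESeq2 called both (adjusted p = 0.00518 and 0.0077), in a comparison where it called 830 genes and edgeR 59. Limma on TPM called neither (Tgm7 -0.64, adjusted p = 0.341, and Epb42 -0.55, adjusted p = 0.365). Leaving out 1 library gave edgeR differences of -1.20 to -0.92 for Tgm7 and -1.46 to -1.32 for Epb42. Tgm4, known from the prostate, stayed between 0.33 and 1.13 TPM and reached 1 TPM in 1 library. Tgm6, F13a1 and F13b, the neuronal enzyme and the clotting factor XIII enzyme and carrier subunits, did not exceed 0.05 TPM. These 4 genes did not pass the filter on TPM, and of them Tgm4 entered the count test, where NFIB/X-dKO differed from NFIX-cKO by 0.33 ± 0.35 (edgeR, adjusted p = 0.689).

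Epb42, Tgm5 and Tgm7 lie in a row on chromosome 2 on the same strand, with 9038 bases between Epb42 and Tgm5 and 7723 bases between Tgm5 and Tgm7 in the annotation. The 13 genes within 100 kb of Tgm5 were examined after the values of Tgm5 and Tgm7 were seen, and 10 of them passed the filter on low values. Gm14213, a processed pseudogene inside the Tgm5 gene body on the opposite strand, averaged 0.315 ± 0.177 TPM in NFIB/X-dKO, 0.85 ± 0.198 TPM in NFIB-cKO, 2.25 ± 1.21 TPM in NFIX-cKO and 3.30 ± 0.141 TPM in WT (SD, n = 2 each). Gm14213 was 1.72 ± 0.30 lower in NFIB/X-dKO than in WT with limma, as a description. Without strand information, its reads and those of Tgm5 cannot be told apart, so no test is given for it.

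The remaining 7 tested neighbours lay close to 0. Ubr1, Tmem62, Ccndbp1, Lcmt2, Adal, Zscan29 and Tubgcp4 differed between NFIB/X-dKO and WT by between -0.16 and 0.25, and none passed with limma. Ccndbp1, next to Epb42, averaged 44.5 ± 1.11 TPM in NFIB/X-dKO and 49.1 ± 4.01 TPM in WT (SD, n = 2 each). The ratio of Tgm5 to Tgm7 TPM was 35.9 and 44.1 in NFIB/X-dKO, 59.2 and 77.2 in NFIB-cKO, 88 and 116 in NFIX-cKO, and 80.2 and 76.5 in WT, so the neighbours did not keep 1 proportion.

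**Figure D3:**
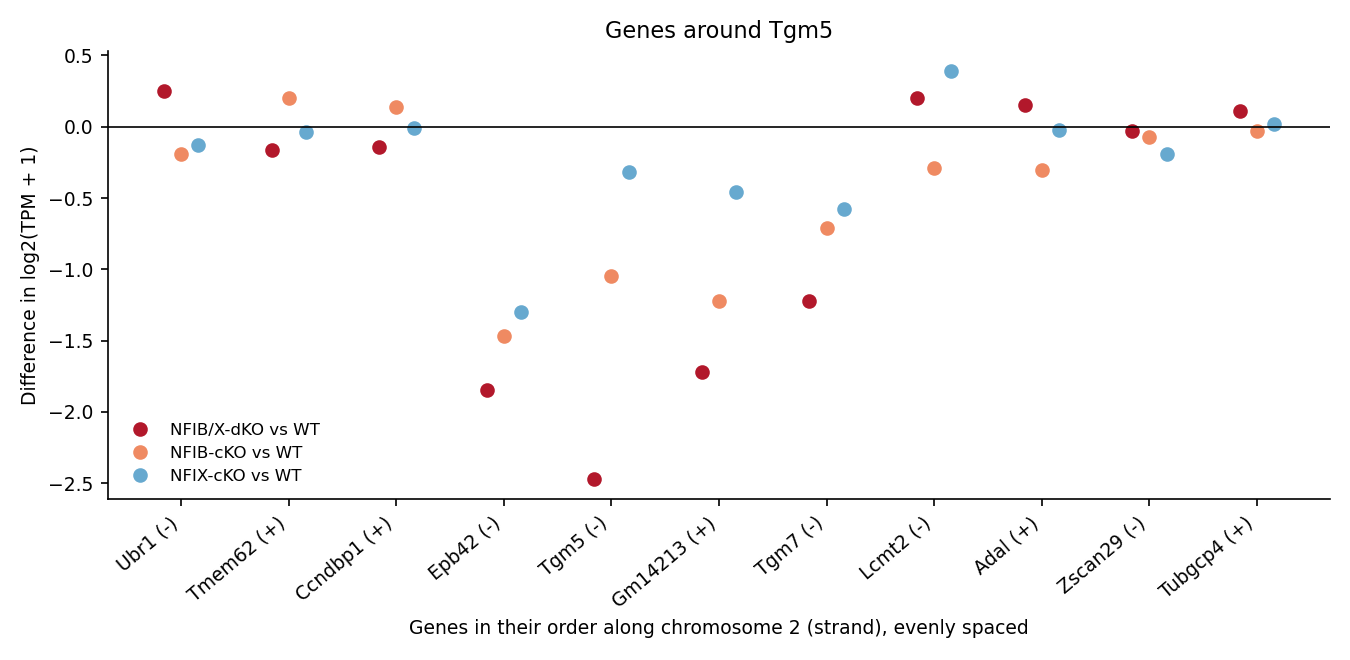
Differences from WT in log2(TPM + 1) of Tgm5 and the 10 genes within 100 kb that passed the filter, in their order along the chromosome and evenly spaced. The strand is in brackets, and colours are the 3 knockout genotypes. Epb42, Tgm5, Gm14213 and Tgm7 lie under 0 in all 3, between -2.47 and -0.32, and the other genes scatter around 0.

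The genes whose pattern over the 8 libraries was nearest to each member were found by the root mean square difference in log2(TPM + 1) after centring each gene on its own mean, among 9605 genes. Nearest to Tgm5 were Col8a2 at 0.24, a type VIII collagen chain, Slc27a3 at 0.25, of the fatty acid transport protein family, and Fxyd6 at 0.33, of a family that modulates the sodium pump. The median distance of all candidates from Tgm5 was 1.04, and Tgm5 itself spanned 2.56. Col8a2 averaged 22.2 ± 1.25 TPM in NFIB/X-dKO, 49.3 ± 6.78 TPM in NFIB-cKO, 68.3 ± 13.5 TPM in NFIX-cKO and 122 ± 10.3 TPM in WT (SD, n = 2 each). These 3 genes lie on other chromosomes (4, 3 and 9).

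**Figure D4:**
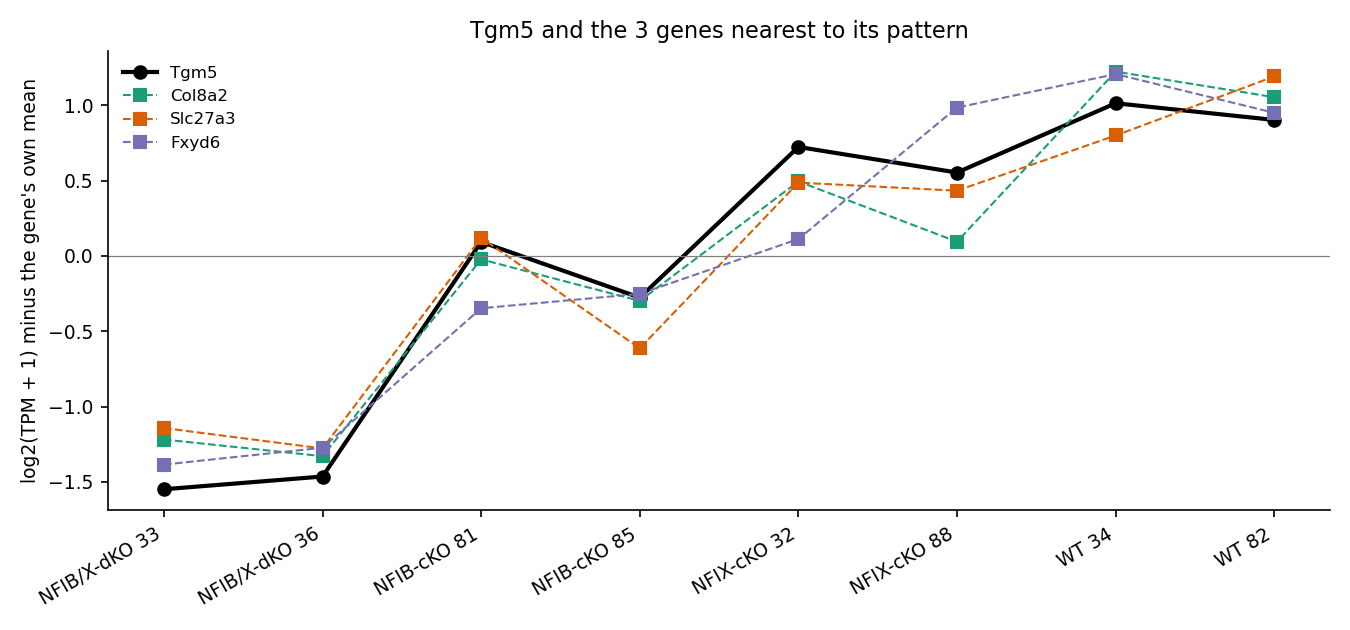
Level of Tgm5 (black, solid) and its 3 nearest genes (dashed) in the 8 libraries as log2(TPM + 1) minus each gene's own mean; lines only join the points of a gene. All 4 are lowest in both NFIB/X-dKO libraries and highest in 1 of the WT libraries, and the 3 differ from Tgm5 by 0.24, 0.25 and 0.33 in root mean square.

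In log2(TPM + 1), a scale that understates changes of weakly expressed genes, the other members spanned less than Tgm5. In TPM, Tgm2 ran from 0.16 to 1.42 and Tgm5 from 105.14 to 626.46, so in proportion Tgm2 did not vary less. Tgm1 spanned 0.97 and was nearest to Rpl34 (0.13), Nt5dc2 (0.16) and Acot9 (0.16), with a median distance of 0.37 for all candidates. Tgm3 spanned 1.07 and was nearest to Hmgb2 (0.16), Cdca4 (0.16) and Slc9a3r1 (0.17), with a median of 0.38. Tgm2 spanned 1.06 and was nearest to Sh3pxd2b (0.13), Nhsl1 (0.14) and Plekha2 (0.14), with a median of 0.45.

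The proteins that transglutaminases cross-link into the cornified envelope showed no member past the test. Of 25 tested substrate genes, 0 passed in NFIB/X-dKO, NFIB-cKO or NFIX-cKO against WT with limma, with 1, 1 and 0 at an unadjusted p under 0.05. Their median difference from WT was 0.04 in NFIB/X-dKO, -0.51 in NFIB-cKO and 0.17 in NFIX-cKO, against 0.16, 0.0 and -0.05 for all genes tested in the same order. Over all genes, 16.8%, 12.6% and 6.81% had an unadjusted p under 0.05 in these comparisons. S100a10, a calcium-binding envelope component, averaged 1060 ± 54.6 TPM in NFIB/X-dKO and 1330 ± 85.6 TPM in WT (-0.32 ± 0.13; limma, adjusted p = 0.29). Periplakin (Ppl), on which the envelope is first laid down, averaged 56.5 ± 6.81 TPM in NFIB-cKO and 94.4 ± 28.2 TPM in WT (-0.70 ± 0.24; limma, adjusted p = 0.28). In NFIB/X-dKO it averaged 103 ± 3.86 TPM. Other substrates were higher in NFIB/X-dKO than in WT, among them Hrnr (0.80 ± 0.39; limma, adjusted p = 0.351) and Cnfn (0.63 ± 0.34; limma, adjusted p = 0.388). In NFIB/X-dKO against NFIX-cKO, 0 of 29 passed with edgeR and 13 had an unadjusted p under 0.05, with a median of -0.53. DESeq2 called 5 and limma 0, counted over all 42 listed genes with a single row. In this comparison 14.7% of all genes had an unadjusted p under 0.05 with edgeR, and the median gene differed by -0.004. DESeq2, given all 46517 genes, called 830, and limma called 121 of 15434. Only 30494 of the 46517 had any rounded count in these libraries, so 830 is not a share of expressed genes. The counts of this list and of those below are to be read against these.

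Among 9 tested substrates and keratins of the hair shaft and its sheath, 0 passed against WT in any knockout with limma, and 4, 1 and 1 had an unadjusted p under 0.05 in NFIB/X-dKO, NFIB-cKO and NFIX-cKO (medians 0.34, 0.2 and -0.1). Hoxc13, a regulator of hair keratins, averaged 14 ± 0.636 TPM in NFIB/X-dKO and 9.61 ± 2.05 TPM in WT (0.51 ± 0.19; limma, adjusted p = 0.245). Of 14 tested against NFIX-cKO, 0 passed with edgeR and 4 had an unadjusted p under 0.05. DESeq2 and limma called 0 of all 21 with a single row. The 12 tested proteases and inhibitors that process transglutaminases or free the envelope also had 0 past the test against WT, with 3, 1 and 0 at an unadjusted p under 0.05 (medians 0.01, -0.03 and 0.09). Spink5, an inhibitor of the skin kallikreins, read 56.14 and 51.56 TPM in NFIB/X-dKO and 19.73 and 12.95 TPM in WT, and its difference of 1.69 ± 0.39 missed the threshold (limma, adjusted p = 0.0812). Against NFIX-cKO 0 of the 12 passed with edgeR or limma, 5 had an unadjusted p under 0.05, and DESeq2 called 1.

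Of 13 tested genes for the lipid layer that is bound to envelope proteins, 1 fell, Elovl4, which makes its very long chain fatty acids. Elovl4 read 20.79 and 17.7 TPM in NFIB/X-dKO, 19.88 and 17.49 TPM in NFIB-cKO, 50.79 and 47.94 TPM in NFIX-cKO, and 69.75 and 98.22 TPM in WT. It fell in NFIB/X-dKO by 2.05 ± 0.19 (limma, adjusted p = 0.00477) and in NFIB-cKO by 2.09 ± 0.19 (adjusted p = 0.0085), and against NFIX-cKO it fell in NFIB/X-dKO by 1.61 ± 0.14 (edgeR, adjusted p = 0.0457). The first call was lost without NFIB/X-dKO 36 (adjusted p = 0.0534), the second without NFIB-cKO 81 or 85 (0.0841 and 0.0955) and the third without NFIB/X-dKO 33 or 36 (0.305 and 0.438). Between NFIB/X-dKO and NFIB-cKO, Elovl4 differed by 0.04 ± 0.19 and Tgm5 by -1.42 ± 0.15, both given without a test. In NFIX-cKO against WT 0 of the 13 passed with limma. An unadjusted p under 0.05 with limma was reached by 2, 4 and 2 of the 13 in NFIB/X-dKO, NFIB-cKO and NFIX-cKO against WT. The list's median difference from WT was 0.26 in NFIB/X-dKO, -0.22 in NFIB-cKO and 0.16 in NFIX-cKO.

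Of 19 tested regulators of keratinocyte differentiation, 0 passed against WT with limma, and 3, 2 and 2 had an unadjusted p under 0.05 in NFIB/X-dKO, NFIB-cKO and NFIX-cKO (medians 0.16, -0.03 and -0.06). Maf, a transcription factor of epidermal differentiation, averaged 22.4 ± 1.49 TPM in NFIB/X-dKO and 40.5 ± 13.4 TPM in WT (-0.79 ± 0.25; limma, adjusted p = 0.183). Against NFIX-cKO 0 passed with edgeR and 2 had an unadjusted p under 0.05. DESeq2 called 1 and limma 0 of all 20 with a single row.

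Of 15 tested partners of Tgm2 at the cell surface and in the matrix, 1 rose. Itgb5, an integrin chain that binds vitronectin, read 70.18 and 76.19 TPM in NFIB/X-dKO, 70.23 and 71.93 TPM in NFIB-cKO, 53.13 and 47.22 TPM in NFIX-cKO, and 38.42 and 40.27 TPM in WT. It rose by 0.88 ± 0.12 in NFIB/X-dKO (limma, adjusted p = 0.0173) and by 0.84 ± 0.12 in NFIB-cKO (adjusted p = 0.0395). The first call was lost with median-of-ratios scaling (adjusted p = 0.0629), with the compared groups alone (0.0545) and without NFIB/X-dKO 33 or 36 (0.167 and 0.22), and the second in 10 of 14 alternatives. Ltbp1, a latent TGF-beta binding protein that transglutaminase ties to the matrix, averaged 109 ± 1.91 TPM in NFIB/X-dKO and 52.8 ± 4.93 TPM in WT (1.03 ± 0.21; limma, adjusted p = 0.0558). In NFIX-cKO against WT 0 of the 15 passed with limma. An unadjusted p under 0.05 with limma was reached by 8, 3 and 3 of the 15 in NFIB/X-dKO, NFIB-cKO and NFIX-cKO against WT. Over all genes the shares were 16.8%, 12.6% and 6.81% in the same order. The medians against WT were 0.24 in NFIB/X-dKO, 0.08 in NFIB-cKO and -0.03 in NFIX-cKO. Against NFIX-cKO 0 of 17 passed in NFIB/X-dKO with edgeR and 7 had an unadjusted p under 0.05. DESeq2 called 2 and limma 0 of all 20 with a single row.

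Retinoic acid is a known inducer of Tgm2. Of 12 tested genes of retinoid handling, 1 fell, Crabp1, which binds retinoic acid in the cytoplasm. Crabp1 read 2.83 and 1.39 TPM in NFIB/X-dKO, 4.35 and 4.23 TPM in NFIB-cKO, 7.56 and 11.9 TPM in NFIX-cKO, and 23.54 and 24.31 TPM in WT, with no overlap between genotypes. It fell by 3.04 ± 0.29 in NFIB/X-dKO (limma, adjusted p = 0.00477) and by 2.24 ± 0.29 in NFIB-cKO (adjusted p = 0.0254). The second call was lost in 7 of 14 alternatives, among them leaving out either WT or either NFIB-cKO library (adjusted p between 0.0744 and 0.189). In NFIX-cKO the Crabp1 difference was -1.25 ± 0.29 (limma, adjusted p = 0.346), and 0 of the 12 passed there. An unadjusted p under 0.05 with limma was reached by 3, 4 and 1 of the 12 in NFIB/X-dKO, NFIB-cKO and NFIX-cKO against WT. The medians against WT were 0.08 in NFIB/X-dKO, 0.2 in NFIB-cKO and 0.07 in NFIX-cKO. Against NFIX-cKO 0 of 15 passed in NFIB/X-dKO with edgeR and 6 had an unadjusted p under 0.05. DESeq2 and limma called 1 each, counted over all 16 with a single row.

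Sums of cell type markers moved with some of these values. The summed TPM of 10 bulge markers was 24300 and 26900 in NFIB/X-dKO, 31900 and 26200 in NFIB-cKO, 35200 and 34400 in NFIX-cKO, and 34400 and 29000 in WT, lower in NFIB/X-dKO as Tgm5 was, though the NFIB/X-dKO and NFIB-cKO libraries overlap. The sum of 9 markers of differentiated epidermis was 6570 and 6260 in NFIB/X-dKO, 4630 and 4620 in NFIB-cKO, 7050 and 4920 in NFIX-cKO, and 5040 and 5120 in WT. That of 9 upper follicle markers was 6860 and 6620 in NFIB/X-dKO, 5120 and 6950 in NFIB-cKO, 5560 and 5050 in NFIX-cKO, and 2440 and 3930 in WT. A few abundant genes weigh most in these sums. Krt5 reached 15703.45 TPM in the bulge list, Krt17 reached 5076.96 TPM in the upper follicle list, and Lrig1 there reached 89.4 TPM. In the sebaceous list below, Mgst1 was 218.07 to 324.28 TPM. The part of these markers in the levels of Tgm1, Tgm3, Tgm5, Spink5 and the envelope genes was not tested. Krt1, the early differentiation keratin, read 311.93 and 360.69 TPM in NFIB/X-dKO, 72.65 and 67.2 TPM in NFIB-cKO, 443.8 and 101.54 TPM in NFIX-cKO, and 216.38 and 123.93 TPM in WT, and was higher in the 30s animal of both NFIX-cKO and WT.

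The sum of 8 fibroblast markers was 174 and 180 in NFIB/X-dKO, 303 and 269 in NFIB-cKO, 232 and 215 in NFIX-cKO, and 301 and 256 in WT, lowest in both NFIB/X-dKO libraries, as Tgm5 was. That of 10 sebaceous markers was 442 and 451 in NFIB/X-dKO, 373 and 376 in NFIB-cKO, 503 and 467 in NFIX-cKO, and 519 and 652 in WT, lower in the NFIB/X-dKO and NFIB-cKO libraries than in the others, as Elovl4 was. The part of either list in these levels was not tested.

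For the remaining types the summed TPM of each list ranged over the 8 libraries from 5.16 to 6.54 for 7 endothelial genes, 32.9 to 62.3 for 8 leukocyte genes, 10.6 to 33.1 for 6 pigment cell genes and 2.14 to 13.7 for 5 muscle genes. Among defining genes, Ptprc of leukocytes did not exceed 0.61 TPM, Dcn and Col3a1 of fibroblasts 0.34 and 0.45 TPM, and Des and Myh11 of muscle 0.01 and 0.05 TPM.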

How the data were processed

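The authors deposited a table of TPM for 8 libraries (46517 genes, plus 92 spike-in sequences that all read 0) and gene tables with expected counts for 5 of them. Per the submitters' processing notes, RSEM 1.2.30, Bowtie2 2.2.9 and the build mm10 (GRCm38) were used. The annotation release was not given in the sources used here. Library preparation used TRIzol LS, Direct-zol columns and a TruSeq mRNA kit with paired-end HiSeq sequencing, per the labels.

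TPM was tested with limma 3.58.1 (R 4.3.3) on log2(TPM + 1), a scale that understates changes of weakly expressed genes, with a variance trend, all 8 libraries in 1 fit, and Benjamini-Hochberg adjustment. A gene entered when 2 or more libraries reached 1 TPM (15434 genes), and the threshold was an adjusted p under 0.05. NFIB/X-dKO against NFIX-cKO used edgeR 4.0.16 (quasi-likelihood, TMM, filterByExpr) on expected counts rounded to whole numbers, with DESeq2 1.42.0 as an alternative. The steps were tested on simulated data. Coordinates came from GENCODE M21, in which 15361 tested genes had an entry, and promoters from RefSeq. Epb42 was deposited under its older symbol and matched by gene ID, and a symbol with several rows was left out of the lists.

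The members, gene lists and tests were chosen with earlier results of these data known. Named were the members, the other family genes, up to 3 genes of smallest p and every gene past the test from each list, from which the text shows a part, the 3 genes nearest to each member in pattern, Nfib, Nfix and marker genes; genes beside Tgm5 were added by position. The result of 1 listed gene is not reported here. Alternatives changed the pseudocount, filter, scaling, covariate, libraries fitted and tool.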

Additional observations from a re-analysis of the deposited data

How the results depend on the processing

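Of 251 recomputed values of the 4 members in 5 comparisons, 4 passed only under the alternative (1 of them Tgm2 against WT, which carries no test in the report), 6 untested values moved beyond the replicate spread, 7 had the opposite sign and 1 was 0. The sign turned for Tgm1 and Tgm3, among them Tgm3 in NFIB/X-dKO against NFIB-cKO, at 0.03 as reported, -0.44 without NFIB-cKO 81, -0.1 with median-of-ratios scaling and -0.02 without NFIB/X-dKO 33. Median-of-ratios scaling gave Tgm5 -2.65 for NFIB/X-dKO against WT and -1.62 against NFIB-cKO, and the animal-number covariate gave -2.54 against WT. That covariate gave Tgm2 -1.13 against WT and -0.68 against NFIB-cKO, and a pseudocount of 0.1 gave -0.84 in the same comparison. Set against NFIX-cKO, NFIB/X-dKO gave with limma on TPM 0.0 for Tgm1, -0.41 for Tgm2, 0.13 for Tgm3 and -2.15 for Tgm5, and within the 30s Tgm1 was 0.05 and Tgm2 -2.57. Leaving out 1 library there gave -0.51 to 0.05 for Tgm1, -2.57 to -1.03 for Tgm2 and -0.12 to 0.02 for Tgm3. Genes past the test without a low-value filter numbered 270 (NFIB/X-dKO against WT), 29 (NFIB-cKO against WT), 71 (NFIB/X-dKO against NFIB-cKO) and 202 (NFIB/X-dKO against NFIX-cKO). With the covariate they were 200 for NFIB-cKO and 44 for NFIX-cKO against WT, and 22 for NFIB/X-dKO against NFIB-cKO. Fits of the compared groups alone called 12 for NFIX-cKO against WT and 3086 for NFIB/X-dKO against NFIB-cKO, where a pseudocount of 0.1 called 23. Within the 80s, 45 passed for NFIB-cKO against WT and 14 for NFIX-cKO against WT, which had 7 within the 30s. For NFIB/X-dKO against NFIX-cKO, DESeq2 called 830, limma 121 and the fit within the 30s 1741. Leaving out 1 library gave 40 to 579 for NFIB/X-dKO, 11 to 157 for NFIB-cKO and 13 to 18 for NFIX-cKO against WT, 8 to 74 for NFIB/X-dKO against NFIB-cKO and 0 (without NFIB/X-dKO 33 or 36) to 6939 (without NFIX-cKO 32) against NFIX-cKO; the cause was not tested. The split into higher and lower calls for NFIB/X-dKO against WT was 250 and 195, and 200 and 240 with median-of-ratios scaling, and limma turned the 22 higher and 37 lower of edgeR against NFIX-cKO into 71 and 50. No paired analysis was possible because no 2 genotypes share an animal number, and the number series entered as the covariate above. With 2 libraries a genotype, a lone library left in an arm is assumed to vary like the other groups, and the depth of 3 libraries was unknown.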
